A study of Mus musculus with 6 samples.

Results

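A set of 10 genes of the G1 and mitotic control machinery was compared here between embryonic stem cells of the mouse (ESCs) and progenitors of the neural lineage (NPCs). They are the D-type cyclins Ccnd1, Ccnd2 and Ccnd3 and the later cyclins Ccne1, Ccna2 and Ccnb1. The others are the cyclin-dependent kinases Cdk2, Cdk4 and Cdk6 and the retinoblastoma gene Rb1. The set was listed by identity, but with earlier results of these data known, so counts set beside all genes only describe it. All 10 genes had a row among the 17144 genes of the deposited table. RNA of wild type V6.5 ESCs, a blastocyst-derived line from a 129SvJae/C57B6 F1 cross, and of NPCs obtained from the same ESCs by differentiation in culture was hybridized to Affymetrix mouse arrays, with 3 biological replicates of each cell type and 1 array per replicate. ESCs were grown with serum and LIF, and NPCs in N3 medium, which by the study's methods held bFGF, EGF and laminin, so that cell type and culture medium cannot be told apart. Both groups come from 1 cell line, and the NPCs are a culture product and not tissue. In bulk RNA of this kind, fewer cells in a given phase of the cycle and less RNA per cell cannot be told apart either.

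Cyclins are the regulatory subunits that switch on cyclin-dependent kinases at set points of the cell cycle. Growth factor signals raise the D-type cyclins, which pair with CDK4 and CDK6 and phosphorylate the RB protein. RB in its less phosphorylated form holds E2F transcription factors in check, and cyclin E with CDK2, then cyclin A, then cyclin B with CDK1, drive entry into S phase, DNA replication and mitosis. Mouse ESCs are known for a short G1 phase and strong cyclin E-CDK2 activity, while neural progenitors are known to use cyclins D1 and D2.

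Between ESCs and NPCs the D-type cyclins moved in opposite directions. Ccnd2 was 26.5-fold and Ccnd1 9.17-fold higher in NPCs, and Ccnd3 was 3.68-fold lower. Ccne1 and Ccnb1 were 5.55-fold and 2.57-fold lower in NPCs. Ccna2, Cdk4 and Rb1 differed by less than 1.5-fold, and Cdk2 and Cdk6 did not pass the test. A gene was called where limma gave an adjusted p under 0.05 (Benjamini-Hochberg adjustment over 17144 genes) and the means differed by more than 1.5-fold, which is 0.58 on the log2 scale. By this rule 5 of the 10 genes changed, beside 34.1% of all genes, and 2 of them rose and 3 fell, beside 15.4% and 18.7% of all genes. In a fit limited to the 12858 genes with mean values above the 25th percentile, 5660 were called. Of the 10 genes, 9 were in that fit and 5 were called. In the fit to all genes, the adjusted p alone was passed by 8 of the 10 genes, against 49.0% of all genes, with 4 higher and 4 lower in NPCs, against 21.9% and 27.2%. The arrays of the cell types did not overlap for 8 of the 10 genes, against 58.7% of all genes, with the NPC arrays above for 4 (26.1% of all genes) and below for 4 (32.6%). The median size of the log2 difference was 0.95 over the 10 genes and 0.33 over all genes, whereas the median signed difference was 0.064 and -0.036.

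**Figure D1:**
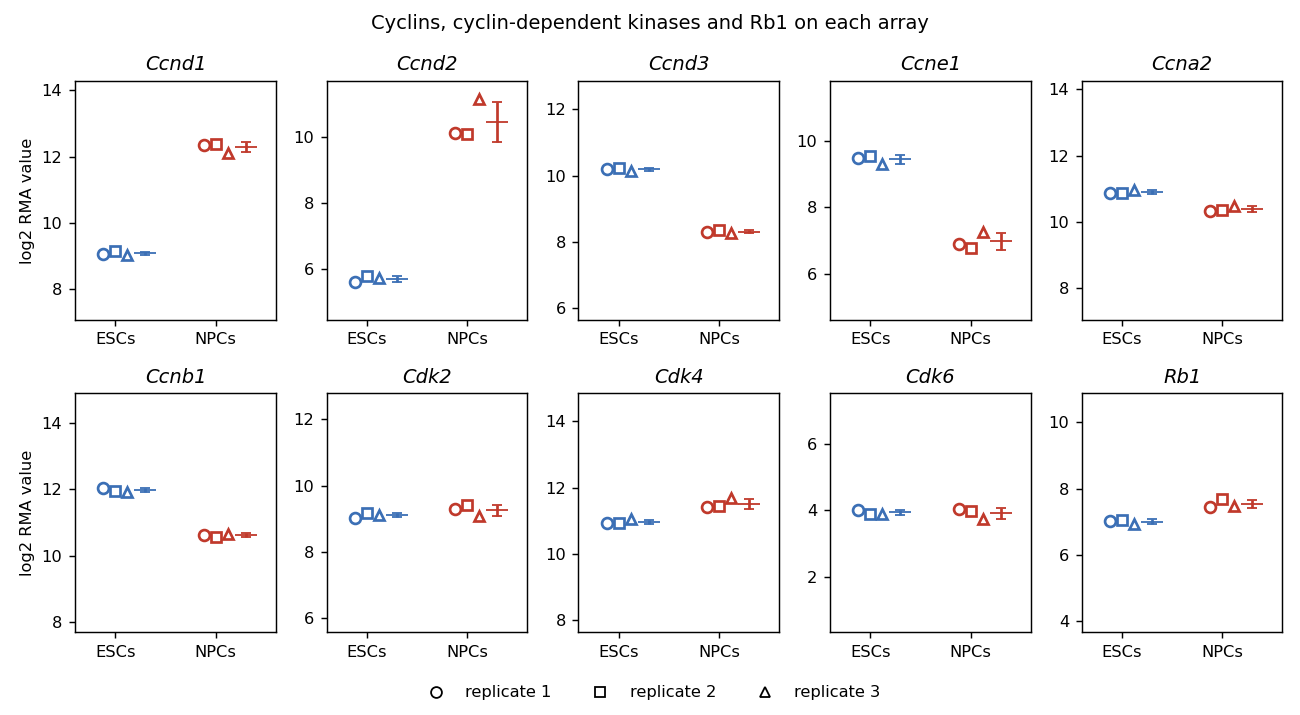
Log2 RMA value (y axis) of each of the 10 genes on the 3 ESC arrays (blue) and the 3 NPC arrays (red), with marker shape for the replicate and, to the right of each group, the mean with its SD. All panels span the same number of log2 units, so that the wide separation of Ccnd1 and Ccnd2 can be read against the narrow one of Ccna2, Cdk4 and Rb1 and the overlap in Cdk2 and Cdk6.

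NPC replicate 3 stood apart from the other NPC arrays, and values without it are given for Ccnd2, Ccne1, Cdk2, Cdk4 and Cdk6. It correlated with them at r = 0.978 to 0.979 across genes, while NPC replicates 1 and 2 correlated at 0.997 and no pair of ESC arrays fell below 0.996. The medians of the arrays lay between 5.59 and 5.76 on the log2 scale, all 3 NPC medians below the ESC medians, and centring each array on its median would add 0.15 to every log2 difference. For the labels, the pluripotency factor Pou5f1 read 12.42 to 12.46 in ESCs and 3.61 to 3.83 in NPCs. The progenitor genes Nes, Fabp7, Slc1a3, Vim and Sox9 were called higher in NPCs, but most names available for the arrays come from a printed list of rises, so that these 5 of 8 progenitor markers were named because they rose. Of the genes listed as markers of neurons, astrocytes or oligodendrocytes, only Olig1, Olig2, S100b and Dcx could be named. They were called higher in NPCs. The same limit on names applies, so this shared direction says nothing of the genes not named. Olig1 and Olig2 already averaged 9.22 and 7.43 on the log2 scale in ESCs. Dcx, a marker of young neurons, ranged from 3.33 to 3.68 in ESCs, and in NPCs it was 3.76 in replicate 3 but 4.86 and 5.06 in the others. Whether such cells were present, and their part in the values of the 10 genes, was not tested.

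The promoters of the genes that fell are shown because cyclin genes are textbook targets of a small set of promoter elements. RefSeq promoter sequences (GRCm38.p6, 250 bases before and 50 after a start site, read 5′ to 3′ on the gene's strand) were at hand for 6 of the 10 genes, namely Ccnd3, Ccne1, Ccnb1, Cdk2, Cdk4 and Cdk6. Those of Ccnb1, Ccne1 and Ccnd3, which fell, and of Cdk2, which did not pass the test, follow with matches in capitals. Capitals mark CCAAT (the CCAAT box bound by NF-Y), TTTGAA (the CHR element of late cell cycle genes), an E2F site (written as TTCCCGC, or with other middle letters as TTCGCGC, or as TTGCCGC, or as TTGGCGC) and GGGCGG (the GC box bound by SP1), each sought on both strands.
Ccnb1, chr13:100786437-100786736, minus strand: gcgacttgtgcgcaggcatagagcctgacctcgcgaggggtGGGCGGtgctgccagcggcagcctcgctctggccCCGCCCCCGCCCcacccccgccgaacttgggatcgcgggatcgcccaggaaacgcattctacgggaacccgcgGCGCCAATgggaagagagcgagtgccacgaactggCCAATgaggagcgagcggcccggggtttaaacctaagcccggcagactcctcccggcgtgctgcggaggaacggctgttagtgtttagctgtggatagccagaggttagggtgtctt
Ccne1, chr7:38107441-38107740, minus strand: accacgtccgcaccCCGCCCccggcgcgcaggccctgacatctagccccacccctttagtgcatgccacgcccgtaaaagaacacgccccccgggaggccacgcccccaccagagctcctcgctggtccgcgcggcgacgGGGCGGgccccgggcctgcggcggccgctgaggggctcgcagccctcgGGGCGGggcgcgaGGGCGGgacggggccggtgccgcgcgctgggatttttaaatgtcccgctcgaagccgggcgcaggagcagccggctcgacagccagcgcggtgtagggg
Ccnd3, chr17:47593217-47593516, plus strand: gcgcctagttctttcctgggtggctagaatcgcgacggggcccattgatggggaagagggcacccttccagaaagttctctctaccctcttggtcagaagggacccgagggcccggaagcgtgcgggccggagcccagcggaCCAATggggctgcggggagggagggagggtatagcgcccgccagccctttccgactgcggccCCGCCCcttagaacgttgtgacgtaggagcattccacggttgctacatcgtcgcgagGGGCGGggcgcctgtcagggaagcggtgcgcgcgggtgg
Cdk2, chr10:128705002-128705301, minus strand: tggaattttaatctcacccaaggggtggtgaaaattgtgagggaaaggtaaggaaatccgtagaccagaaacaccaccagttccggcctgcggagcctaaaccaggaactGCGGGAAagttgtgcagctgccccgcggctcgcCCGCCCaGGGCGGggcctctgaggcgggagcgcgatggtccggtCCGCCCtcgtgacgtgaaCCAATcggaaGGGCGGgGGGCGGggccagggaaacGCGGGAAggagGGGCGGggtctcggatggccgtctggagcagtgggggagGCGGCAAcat

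The Ccnb1 promoter held 2 CCAAT boxes, 1 match to the E2F letters and 3 GC boxes, and its E2F match overlaps the first CCAAT box. Ccne1 had 4 GC boxes and no exact match to the other letters sought in this window. For Ccnd3 the table gives another start site, at chr17:47504801-47505100, whose window held 2 GC boxes, whereas the window shown held 1 CCAAT box and 2 GC boxes. Cdk2, which did not pass the test, had the most matches, with 1 CCAAT box, 3 E2F matches and 6 GC boxes. The other kinase genes, also not called, had fewer: the Cdk4 window held 3 GC boxes only, and the Cdk6 window had no match. Of 32851 mouse promoters of this length, 37.4% hold the CCAAT letters, 17.9% the CHR letters, 9.57% the E2F letters and 35.7% the GC box. No window of the 6 genes held the exact letters TTTGAA. Other spellings of the CHR element and of the E2F site were not sought, so the absence of either from a window is not shown. These matches describe letters only and were not tied to the expression values.

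Ccnd1 (ENSMUSG00000070348_at) encodes cyclin D1, a partner of CDK4 and CDK6 that growth factor signals induce. Its log2 values were 9.06, 9.15 and 9.04 in ESC replicates 1 to 3 and 12.35, 12.38 and 12.11 in NPC replicates 1 to 3. The groups did not overlap, and NPCs were higher by at least 2.96 on the log2 scale. The means of 9.08 ± 0.058 (SD, n = 3 arrays) and 12.28 ± 0.15 (SD, n = 3 arrays) differed by 3.20 (95% confidence interval 2.96 to 3.43, adjusted p = 5.63e-07 from limma). Only 1.17% of all genes rose by more than Ccnd1. With 1 array left out at a time the difference stayed between 3.14 and 3.28.

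Ccnd2 (ENSMUSG00000000184_at), which encodes cyclin D2, had the largest change of the 10 genes. ESC replicates read 5.61, 5.79 and 5.74 on the log2 scale and NPC replicates 10.12, 10.07 and 11.13. The groups were at least 4.28 apart, and NPC replicate 3 was the highest array by a wide margin. The difference between 5.71 ± 0.093 (SD, n = 3 arrays) in ESCs and 10.44 ± 0.59 (SD, n = 3 arrays) in NPCs was 4.73 (95% confidence interval 4.09 to 5.37, adjusted p = 9.24e-06 from limma), and it ranked 40 among the rises of all genes. Without NPC replicate 3 the difference was 4.39, and the gene was called there too.

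Ccnd3 (ENSMUSG00000034165_at), for cyclin D3, went the other way. Values of 10.20, 10.23 and 10.14 in ESCs stood against 8.29, 8.37 and 8.28 in NPCs on the log2 scale. The arrays within a cell type lay within 0.1 of each other, the tightest spread of the 10 genes in both groups, and the gap between the groups was 1.77. Ccnd3 fell from 10.19 ± 0.046 (SD, n = 3 arrays) to 8.31 ± 0.051 (SD, n = 3 arrays), a difference of -1.88 (95% confidence interval -2.06 to -1.70, adjusted p = 1.76e-06 from limma). A larger fall was measured for 4.84% of all genes.

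Set against each other within an array, the D-type cyclins changed unequally. Such a difference between probe sets is no ratio of transcripts, because probe sets differ in their response, but its change between cell types cancels anything that scales a whole array. That change does not cancel unequal response of the probe sets, so a larger rise of Ccnd2 than of Ccnd1 transcripts is not shown. Ccnd2 minus Ccnd3 was -4.59, -4.44 and -4.41 on the log2 scale in ESC replicates 1 to 3 and 1.84, 1.70 and 2.84 in NPC replicates 1 to 3, a change of 6.61 or 97.5-fold, and of 6.25 without NPC replicate 3. Ccnd1 minus Ccnd3 went from -1.11 ± 0.027 (SD, n = 3 arrays) to 3.96 ± 0.12 (SD, n = 3 arrays), a change of 5.07. In measured log2 value Ccnd2 also changed more than Ccnd1. Their difference moved from -3.37 ± 0.073 (SD, n = 3 arrays) to -1.84 ± 0.74 (SD, n = 3 arrays), by 1.53. This last shift leaned on NPC replicate 3, which read -0.98 against -2.22 and -2.31 in the other NPC arrays, and it was 1.10 without that array. For each of these pairs no NPC array overlapped an ESC array, and the exact two-sided permutation test gave p = 0.1, the smallest that 3 arrays against 3 allow.

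**Figure D2:**
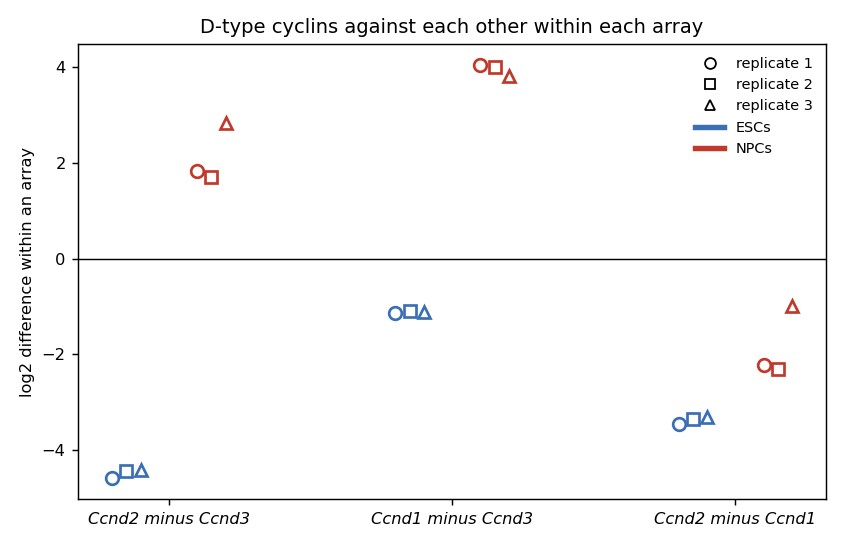
Log2 difference between D-type cyclins within each array (y axis) for 3 pairs (x axis), in ESCs (blue) and NPCs (red), with marker shape for the replicate. The NPC arrays sit above the ESC arrays in each pair, and NPC replicate 3 sits apart in both pairs with Ccnd2.

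Among the later cyclins, Ccne1 (ENSMUSG00000002068_at) fell most. It encodes cyclin E1, the partner of CDK2 at the start of S phase. ESC replicates gave log2 values of 9.49, 9.55 and 9.31, and NPC replicates 6.89, 6.77 and 7.26. All NPC arrays were at least 2.05 below the ESC arrays, with NPC replicate 3 the highest of them. The means, 9.45 ± 0.12 (SD, n = 3 arrays) and 6.97 ± 0.25 (SD, n = 3 arrays), differed by -2.47 (95% confidence interval -2.81 to -2.14, adjusted p = 9.01e-06 from limma), and without NPC replicate 3 by -2.61. Ccne2, the other E-type cyclin, is outside the 10 genes and could be named because it is printed among the rises. It read 5.75 ± 0.32 (SD, n = 3 arrays) in ESCs and 8.02, 7.82 and 7.35 in NPC replicates 1 to 3 on the log2 scale, and it rose by 1.98 (standard error 0.22, adjusted p = 0.000231 from limma). The direction thus differed between the E-type genes, as it did among the D-type genes.

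Ccnb1 (ENSMUSG00000041431_at) encodes cyclin B1, the partner of CDK1 in mitosis, and its level swings with the cycle, high in G2 and mitosis. The arrays read 12.04, 11.96 and 11.92 in ESCs and 10.63, 10.55 and 10.67 in NPCs on the log2 scale. NPC values were all lower, with a gap of 1.25 and an SD near 0.06 in both cell types. Ccnb1 fell by 1.36 on the log2 scale (95% confidence interval of the difference -1.55 to -1.17, adjusted p = 9.71e-06 from limma).

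Ccna2 (ENSMUSG00000027715_at), for cyclin A2 of S and G2 phase, was lower in NPCs by less than the 1.5-fold threshold. It read 10.86, 10.88 and 10.96 in ESCs and 10.32, 10.37 and 10.49 in NPCs on the log2 scale. The groups did not overlap and lay 0.38 apart. The difference was -0.51 (95% confidence interval -0.71 to -0.32, 1.42-fold, adjusted p = 0.00162 from limma), and the interval includes the threshold of 0.58. Centring on the array medians brought the difference to -0.36. Ccnb1 and Ccna2 are both genes of late phases, but the interval of Ccnb1 lay wholly below that of Ccna2.

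**Figure D3:**
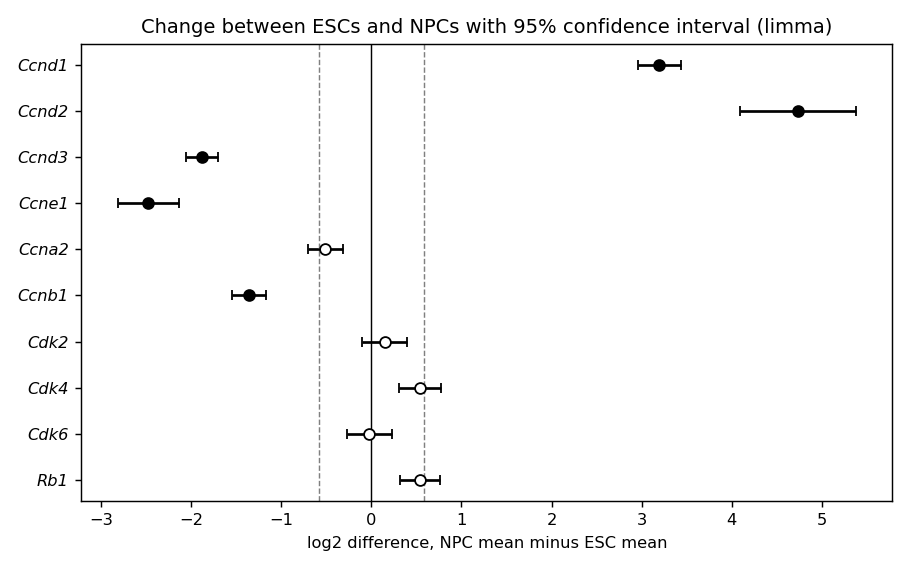
Log2 difference of NPCs from ESCs (x axis) for each of the 10 genes, with the 95% confidence interval from limma as the bar. Filled points were called, open points were not, and the dashed lines mark 1.5-fold in either direction. Ccnd1 and Ccnd2 lie to the right, Ccnd3, Ccne1 and Ccnb1 to the left, and the other 5 points between the dashed lines, which the bars of Ccna2, Cdk4 and Rb1 cross.

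None of the kinase genes was called in the deposited values. Cdk4 (ENSMUSG00000006728_at) encodes a main partner of the D-type cyclins in many dividing cells. Its log2 values were 10.93, 10.95 and 11.04 in ESCs and 11.43, 11.43 and 11.68 in NPCs. NPC arrays were all higher, by at least 0.38. The difference of 0.54 (95% confidence interval 0.31 to 0.77, 1.45-fold, adjusted p = 0.00293 from limma) fell short of 1.5-fold. It was 0.46 without NPC replicate 3, the highest array. It was 0.69 after centring on the array medians and 0.62 after quantile normalization, and with either scaling Cdk4 was called higher in NPCs.

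Cdk2 (ENSMUSG00000025358_at), the partner of cyclins E and A, read 9.03, 9.16 and 9.12 in ESCs and 9.28, 9.41 and 9.07 in NPCs on the log2 scale. The groups overlapped, because NPC replicate 3 lay within the ESC range while the other NPC arrays were above it. The difference was 0.15 (95% confidence interval -0.10 to 0.40, adjusted p = 0.301 from limma), an interval that stays inside 1.5-fold in either direction. Without NPC replicate 3 it was 0.24, with an adjusted p of 0.0438 from limma, and with median centring 0.30, with an adjusted p of 0.0471, both still under 1.5-fold. The adjusted p ranged up to 0.656 over the other settings.

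Cdk6 (ENSMUSG00000040274_at), the other kinase of the D-type cyclins, had low values in both cell types. They were 4.01, 3.89 and 3.90 in ESCs and 4.05, 3.97 and 3.72 in NPCs on the log2 scale, where the 25th percentile of an array lay between 3.92 and 4.08. The ranges overlapped, with NPC replicate 1 above and NPC replicate 3 below all ESC arrays. The difference was -0.021 (95% confidence interval -0.27 to 0.23, adjusted p = 0.897 from limma), and its sign turned with scaling, to 0.058 after quantile normalization and 0.13 after median centring, and without NPC replicate 3, to 0.074. No detection calls were used here, so values this low do not show whether the transcript was present, and the interval bounds only a change that the probe set could register.

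Rb1 (ENSMUSG00000022105_at) encodes the retinoblastoma protein that cyclin D kinases phosphorylate. ESC arrays read 7.01, 7.07 and 6.93 and NPC arrays 7.47, 7.69 and 7.49 on the log2 scale. The NPC arrays were all higher, with a gap of 0.39. The difference of 0.54 (95% confidence interval 0.32 to 0.76, 1.46-fold, adjusted p = 0.00229 from limma) was under the fold threshold, and it was over it with quantile normalization, at 0.59, and with median centring, at 0.70. Rb1 and Cdk4 thus stood in the same place relative to the threshold, and so both depend on how the arrays are scaled.

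**Figure D4:**
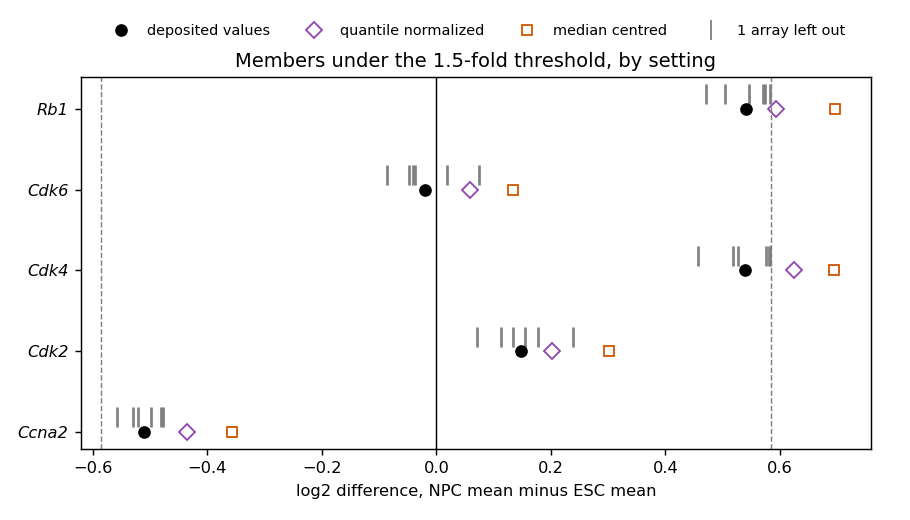
Log2 difference of NPCs from ESCs (x axis) for the 5 genes that were not called, with the deposited values (filled circles), after quantile normalization (diamonds), after centring on array medians (squares) and with 1 array left out at a time (grey ticks). Dashed lines mark 1.5-fold. Both scalings carry Cdk4 and Rb1 past the line, neither does so for Cdk2 or Ccna2, and Cdk6 lies on either side of 0.

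The spread among arrays was small in ESCs, with SDs of 0.046 to 0.12 over the 10 genes and a median of 0.064, where the median over all genes was 0.092. In NPCs the median SD was 0.15 over the 10 genes and 0.14 over all genes. The distance of NPC replicate 3 from the average of NPC replicates 1 and 2 had a median size of 0.25 over the 10 genes and 0.17 over all genes. For Ccnd2 it was 1.03 on the log2 scale, and its SD in NPCs was higher than that of 96.1% of genes. The next in size were 0.43 for Ccne1, -0.28 for Cdk6, -0.27 for Cdk2, -0.26 for Ccnd1 and 0.25 for Cdk4. Ccnd3, Ccnb1 and Rb1 deviated by less than 0.1 in this array. NPC replicates 1 and 2 were never more than 0.22 apart at any of the 10 genes.

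**Figure D5:**
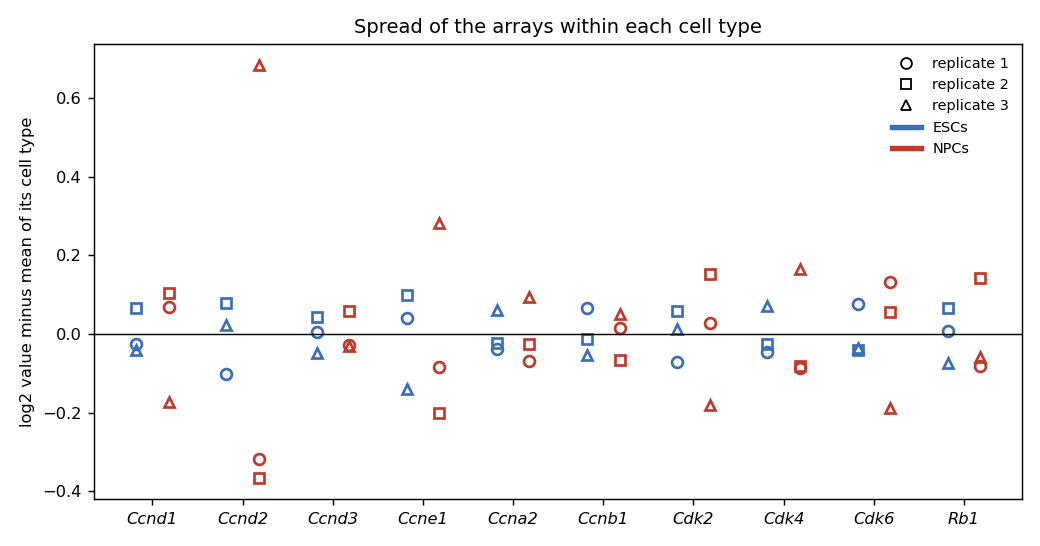
Log2 value of each array minus the mean of its cell type (y axis) for each of the 10 genes, in ESCs (blue) and NPCs (red), with marker shape for the replicate. NPC replicate 3 (red triangle) of Ccnd2 is the farthest point. The same array lies at one end of the NPC values in every gene but Rb1, though by very little in Ccnd3.

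The gene closest to Ccnd2 in its pattern over the 6 arrays was Tnc, the extracellular matrix protein tenascin C, among 2008 other named genes. Likeness was the root mean square difference of log2 values centred on each gene's ESC mean, and it was 0.13 for Tnc, 0.16 for C130071C03Rik and 0.18 for the potassium channel subunit Kcnmb4. Like Ccnd2, Tnc was highest in NPC replicate 3, at 11.99 against 10.64 and 10.69 in the other NPC arrays and 6.24 to 6.34 in ESCs. The names searched come almost wholly from genes that rose, and a shared shape over 6 arrays in 2 groups is easily had.

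Of 77 further cell cycle genes listed for comparison, 8 could be named, and all 8 were called higher in NPCs. They were named because they appear in a printed list of rises, so this count says nothing of the direction of the other 69. Besides Ccne2 they include Cdkn2c, which encodes the CDK4 and CDK6 inhibitor p18INK4c. It rose from 5.40 ± 0.14 (SD, n = 3 arrays) to 9.56 ± 0.053 (SD, n = 3 arrays), by 4.16 (standard error 0.097, adjusted p = 1.66e-07 from limma). Cdkn2a encodes the inhibitor p16INK4a and the p53 activator p19ARF. It read 4.81 on each ESC array and 9.15, 8.93 and 6.31 in NPC replicates 1 to 3. The array in which Ccnd2 was highest thus had the lowest Cdkn2a of the NPC arrays. That single array stood apart across genes, and a link between these genes was not tested. The pocket protein gene Rbl2 (p130) rose by 1.17 (standard error 0.16, adjusted p = 0.000614 from limma), with NPC values of 6.40, 6.47 and 5.93. The less studied kinase genes Cdk14 and Cdk19 rose by 1.88 and 1.00, and the cyclin-like genes Ccnjl and Ccnyl1 by 1.68 and 1.09, with adjusted p from 6.29e-05 to 0.00226 in limma. None of the listed replication licensing genes, mitotic regulators or CDK activators could be named, and they were not analysed here.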

How the data were processed

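Total RNA of 3 ESC and 3 NPC cultures was labelled and hybridized to Affymetrix mouse expression arrays. The authors deposited log2 expression values per Ensembl gene from the RMA algorithm, in which probe signals are background-corrected, quantile normalized across arrays and summarized. For the array annotation, the version and genome build were not found in the labels or methods used here, and the promoter sequences printed are from RefSeq on GRCm38.p6. Groups and replicate numbers came from the sample labels.

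The table has 17208 rows, of which 64 control probe sets were left out. No floor or further normalization was applied. Arrays carry no counts, and their number limits the precision. NPCs were compared with ESCs in limma 3.58.1 (lmFit and eBayes, R 4.3.3, no covariates) with Benjamini-Hochberg adjustment over 17144 genes. Calls needed an adjusted p below 0.05 with a change over 1.5-fold, as in the study's methods, whose moderated Welch test was rebuilt as an alternative. Limma was also run on simulated arrays of 17144 genes, 200 of them changed. There it called 78 of 100 genes changed 2-fold, 97 of 100 changed 4-fold and 8 unchanged genes. The simulated noise was independent between arrays, with the same SD in both cell types, and far fewer genes changed than were called in the real arrays. These figures therefore need not hold for the real arrays.

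The members and gene lists were chosen with earlier results of these data known. The 10 members were found by Ensembl identifier. Other genes were named where their 6 values matched, within 0.0001, a row that the study's tables print with a name, which gave 2004 names, nearly all of genes that rose. The printed names of Ccnd1 and Ccnd2 were the same as those of the list. Named in the text are all members, genes of lists of cell cycle genes and of markers of pluripotent cells, neural progenitors, neurons, astrocytes, oligodendrocytes and fibroblasts, and the 3 named genes nearest in pattern to the member with the largest change. In the marker lists, 1 of 8 pluripotent, 5 of 8 progenitor, 1 of 6 neuron, 1 of 4 astrocyte, 2 of 5 oligodendrocyte and 0 of 6 fibroblast genes could be named. The authors' own comparison statistics were not used.

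Replicate numbers occur in both cell types, but deviations from the group means correlated at 0.026, 0.011 and -0.0064 for the pairs numbered 1, 2 and 3, so no pairing was assumed. Alternatives were the moderated Welch test, a mean-variance trend, quantile normalization, median centring, a block for the replicate number, a filter at the 25th percentile of the mean value, other fold thresholds and each array left out in turn. Python 3.11.15, pandas 2.3.3 and matplotlib 3.10.9 made the tables and figures.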

Additional observations from a re-analysis of the deposited data

How the results depend on the processing

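Ccnd1, Ccnd2, Ccnd3, Ccne1 and Ccnb1 kept their direction and were called under each of the 14 alternatives. Their log2 differences ranged from 3.14 to 3.35, from 4.39 to 4.91, from -1.91 to -1.72, from -2.61 to -2.32 and from -1.39 to -1.21. With no fold threshold Ccna2 (-0.51), Cdk4 (0.54) and Rb1 (0.54) were called as well, which made 8 of the 10 genes, 4 of them higher. Scaling decided the calls of Cdk4 and Rb1: at 0.62 and 0.59 after quantile normalization and at 0.69 and 0.70 after median centring both were called, so that 4 genes were higher in NPCs with either. Cdk6 turned sign, to 0.058 after quantile normalization, 0.13 after median centring, 0.018 without ESC replicate 1 and 0.074 without NPC replicate 3, and was called in none of its 13 settings. It was also left out by the filter at the 25th percentile, which kept the other 9 genes. Leaving out single arrays gave values for Cdk6 of -0.087 to 0.074.

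With a difference of over 2-fold the genes called over the whole table fell from 5851 to 3592, with 1615 higher and 1977 lower, while the same 5 members were called. After median centring 3302 genes were higher and 2642 lower, and after quantile normalization 2974 and 2900, against 2638 and 3213 in the deposited values. Without 1 array the number of genes called was between 5637 and 6199. Only without NPC replicate 3, at 6199, was it above the 5851 called with all arrays.

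With the replicate number as a block, 5 of the 10 genes and 5867 of all genes were called, and no call among the 10 genes changed. The arrays share only a number.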
